A study of Sus scrofa with 10 samples.

Results

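The integrated stress response and the unfolded protein response are linked programmes by which a cell answers misfolded protein in the endoplasmic reticulum (ER) and a shortage of amino acids. They were followed here through 10 genes chosen by name (DDIT3, ATF4, XBP1, TRIB3, ASNS, CHAC1, HERPUD1, SDF2L1, CRELD2 and ERN1) in RNA from pig liver (Sus scrofa). Of these 10 names, 8 were carried by a row of the deposited table of 31905 genes, 1 row each, and all 8 passed the filter on low values. SDF2L1, an ER co-chaperone partner, and ERN1, the ER stress sensor IRE1, were not analysed here: no row was matched to either by name, and the identifier that the reference gives for ERN1 carries the name ICAM2 in the table, so no value was taken from it. Rows were matched by name, with no threshold on their values.

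The study concerned liver failure after hepatectomy and a bioartificial liver, an external device that carries the blood past liver cells. All groups were labelled as wild-type liver: 3 libraries of normal liver on day 0 (Control), 2 of failing liver without a device on day 2 (NoBAL), 2 with an empty device on day 3 (EmptyBAL), 1 with the device loaded with human induced hepatocytes on day 4 (hiHepD4) and 2 with that device on day 8 (hiHepD8). EmptyBAL was included by the study as the control for passing blood through the device. The labels give no age, strain or sex of the pigs and do not say whether libraries of a group came from separate animals, and every group has its own day, so day and treatment cannot be told apart.

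In the unfolded protein response, 3 sensors in the ER membrane (PERK, IRE1 and ATF6) react to unfolded protein. PERK and its sister kinases phosphorylate eIF2, which slows translation in general and raises translation of ATF4, and IRE1 splices the XBP1 message into the form that encodes the active factor. ATF4 then acts on genes of amino acid supply and on DDIT3 (CHOP), while XBP1 and ATF6 act on ER chaperones and on ER-associated degradation, the route by which misfolded proteins are removed. Hepatocytes secrete most plasma proteins and carry a large ER. Gene-level values give neither the splicing of XBP1 nor the translation of ATF4.

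Values are FPKM (sequenced fragments scaled by gene length and by library), which allow levels of different genes to be compared, and the libraries summed to between 439925 and 829970 FPKM. Control and hiHepD8 libraries lay close together, while NoBAL and EmptyBAL libraries did not: of 4903 genes averaging 10 FPKM or more, 0.22% to 0.24% were over 2-fold apart for any Control pair and 0.20% for the hiHepD8 pair, but 13.1% for NoBAL and 28.0% for EmptyBAL. All 7 hepatocyte markers were detected in every group, and their summed level was 99197 to 101276 FPKM in Control, with NoBAL at 18816 and 29362, EmptyBAL at 6360 and 8251, hiHepD4 at 46310 and hiHepD8 at 35569 and 35866. In whole liver, fewer cells of a type and less RNA per cell cannot be told apart. Changes are given as log2 changes on the log2(FPKM + 1) scale with limma's standard error (SE), and adjusted p-values are limma's, two-sided, with Benjamini-Hochberg adjustment over all 12180 genes tested; a gene was called at an adjusted p under 0.05.

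The 8 genes did not move as a block. CRELD2 and ASNS were higher in failing liver, with and without the empty device, than in Control, and low again on day 8 of the cell-filled device. DDIT3 and HERPUD1 were lower in failing liver than in Control; on day 8 HERPUD1 stood above both of those groups, and DDIT3 was still below Control. CHAC1 was highest on day 8. XBP1 was highest in the single day 4 library. TRIB3 was highest there too, but barely above its highest Control library (9.84 against 9.51 FPKM).

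**Figure D1:**
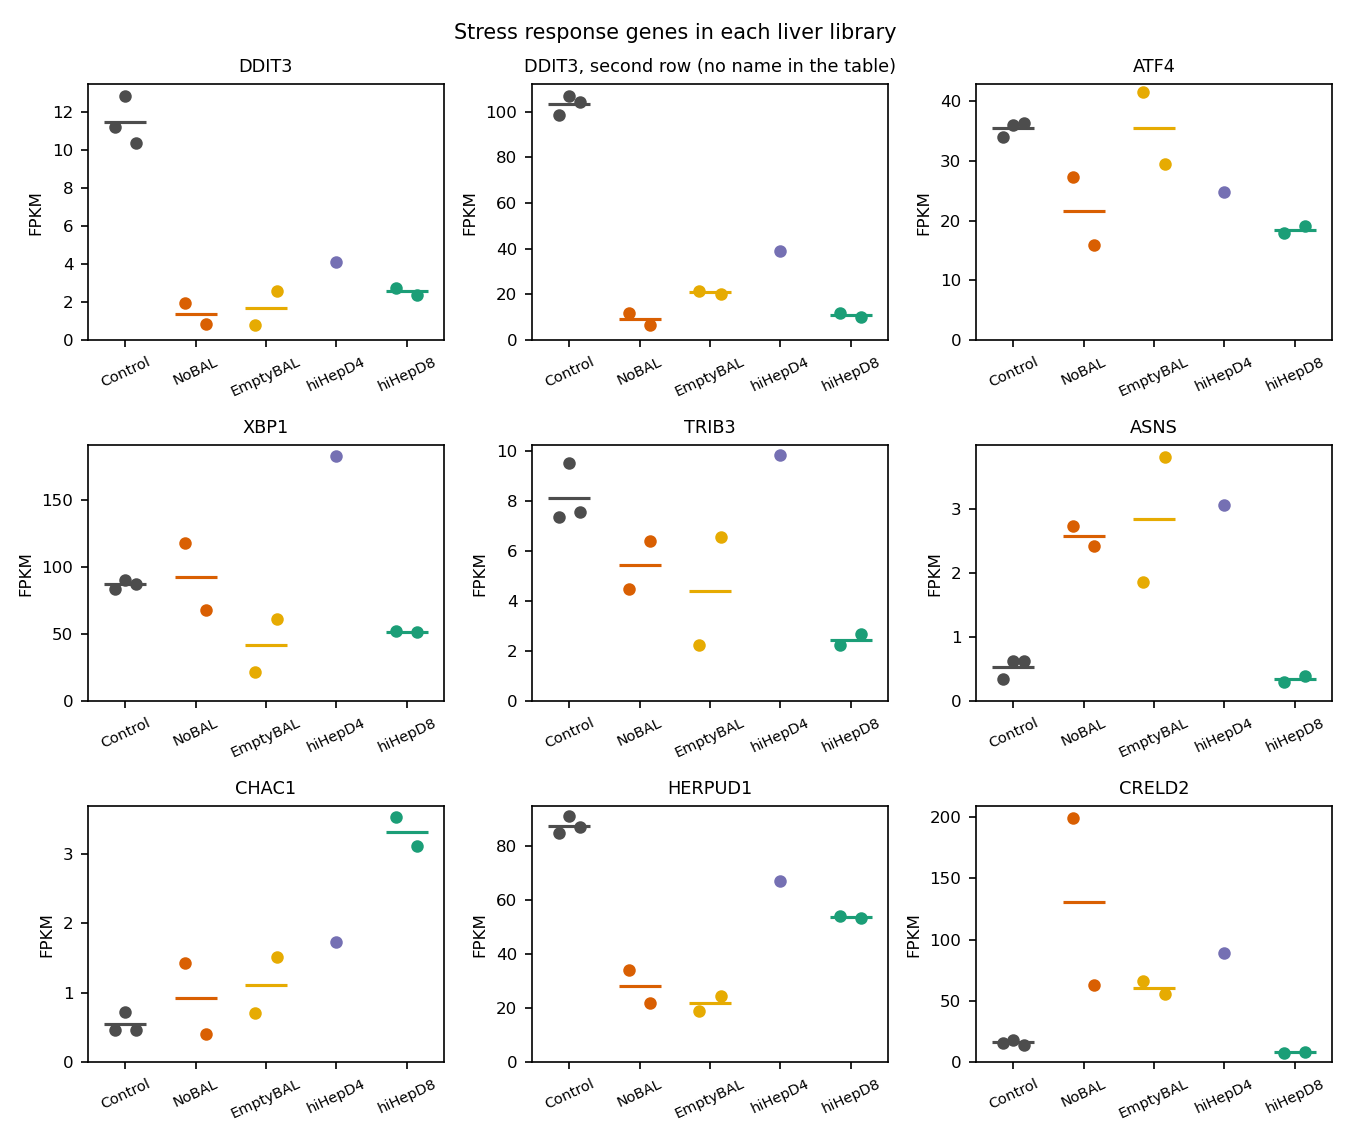
FPKM (vertical axes, from 0) of the 8 genes and of the second row for DDIT3 in each of the 10 libraries, by group; points are libraries and bars are group means, with no bar for the single hiHepD4 library. CRELD2 lies at 55.3 FPKM or more in every NoBAL and EmptyBAL library and at 17.9 or less in every Control and hiHepD8 library. The row named DDIT3 lies above 10 FPKM in Control only. The second row for DDIT3 lies above 10 FPKM in every library except NoBAL replicate 2.

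ATF4 is the transcription factor at the centre of the integrated stress response. Its row (ENSSSCG00000000084; matched to RefSeq's ATF4 by symbol, on chromosome 5 of Sscrofa11.1 at 8742964 to 8745752) stood at 33.9, 36.0 and 36.4 FPKM in Control, with NoBAL at 27.2 and 16.0, EmptyBAL at 41.5 and 29.5, hiHepD4 at 24.8 and hiHepD8 at 17.9 and 19.1. The NoBAL and hiHepD8 libraries lay below every Control library, and the EmptyBAL libraries lay on either side of Control. ATF4 was lower in NoBAL than in Control (log2 change -0.73 ± 0.25 SE, adjusted p = 0.0388), lower in hiHepD8 than in Control (-0.90 ± 0.25, adjusted p = 0.0262) and lower in hiHepD8 than in EmptyBAL (-0.89 ± 0.27, adjusted p = 0.0328). In the order of group means, hiHepD8 and NoBAL did not differ beyond their spread (-0.17 ± 0.27, adjusted p = 0.632), nor did Control and EmptyBAL (-0.02 ± 0.25, adjusted p = 0.958), although scaling every library to the same sum turned the second difference to 0.79 ± 0.19 (adjusted p = 0.00664), where the median of all genes also moved, to 0.65. The reference gives the name ATF4 to another identifier, ENSSSCG00000059058, which was matched to no row used here. These 3 calls were near the threshold. The first was lost without any single Control library (adjusted p = 0.0843 to 0.1) or NoBAL replicate 2 (-0.37, adjusted p = 0.203), the second without any Control or hiHepD8 library (adjusted p = 0.0696 to 0.157), and the third without EmptyBAL replicate 1 or either hiHepD8 library (adjusted p = 0.104 to 0.15). EmptyBAL against NoBAL was not called (0.72 ± 0.27, adjusted p = 0.073), but was without NoBAL replicate 1 or EmptyBAL replicate 2 (adjusted p = 0.0177 and 0.0247) and under both other scalings (1.24 and 1.19). With the same-sum scaling the first and second calls were lost too (-0.39 and -0.36).

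DDIT3 encodes CHOP, a factor linked to cell death under lasting ER stress. The row the table names DDIT3 (ENSSSCG00000044553) stood at 11.2, 12.8 and 10.3 FPKM in Control, with NoBAL at 1.93 and 0.828, EmptyBAL at 0.799 and 2.60, hiHepD4 at 4.10 and hiHepD8 at 2.75 and 2.37. Every library outside Control was below every Control library. The gene was lower than in Control in NoBAL (-2.42 ± 0.31, adjusted p = 0.00058), in EmptyBAL (-2.29 ± 0.31, adjusted p = 0.000695) and in hiHepD8 (-1.81 ± 0.31, adjusted p = 0.00391). Between NoBAL, EmptyBAL and hiHepD8 no difference was called (adjusted p = 0.172 to 0.78), except that without EmptyBAL replicate 2 hiHepD8 was called higher than EmptyBAL (0.98, adjusted p = 0.0235).

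A second row also stands for DDIT3. It has no name in the table, and the reference gives its identifier, ENSSSCG00000050998, to DDIT3, which RefSeq places on chromosome 5 at 22785441 to 22789867. Its level was 4.28 to 27.1 times that of the named row within a library: 98.5, 107 and 104 FPKM in Control, with NoBAL at 11.8 and 6.39, EmptyBAL at 21.7 and 20.1, hiHepD4 at 39.0 and hiHepD8 at 11.8 and 10.2. This row too was lower than in Control in NoBAL (-3.42 ± 0.23, adjusted p = 3.49e-05), EmptyBAL (-2.25 ± 0.23, adjusted p = 0.000191) and hiHepD8 (-3.12 ± 0.23, adjusted p = 9.74e-05). Both rows thus placed DDIT3 below Control in all 3 groups. They parted elsewhere: the second row was higher in EmptyBAL than in NoBAL (1.17 ± 0.26, adjusted p = 0.0135) and lower in hiHepD8 than in EmptyBAL (-0.87 ± 0.26, adjusted p = 0.0291), where the named row was not called. How fragments were divided between these rows is not stated.

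XBP1, the factor that IRE1 activates by splicing, lies on chromosome 14 at 46011239 to 46016526. Its level was 83.4, 90.3 and 87.2 FPKM in Control, with NoBAL at 118 and 67.6, EmptyBAL at 21.96 and 61.0, hiHepD4 at 183 and hiHepD8 at 52.2 and 51.5. The NoBAL libraries fell on either side of Control, the EmptyBAL libraries were 2.78-fold apart, and hiHepD4 was above every other library. XBP1 was lower in EmptyBAL than in Control (-1.22 ± 0.41, adjusted p = 0.0362), a call lost without EmptyBAL replicate 1 (-0.50, adjusted p = 0.171), without any Control library (adjusted p = 0.0777 to 0.0894) and under both other scalings (-0.81 and -0.42). In EmptyBAL replicate 1 the hepatocyte factor HNF4A was also low, at 3.15 FPKM against 46.5 in replicate 2 and 105 to 112 in Control; its part in the result was not tested. No other XBP1 difference was called (adjusted p = 0.0622 to 0.947), but without EmptyBAL replicate 2 those of EmptyBAL against NoBAL (-1.97, adjusted p = 0.00175) and hiHepD8 against EmptyBAL (1.20, adjusted p = 0.013) were. hiHepD8 against Control was not called with the spread shared by all groups (-0.73 ± 0.41, adjusted p = 0.208), although the libraries did not overlap. With the 2 groups fitted alone the adjusted p was 2e-05, but 8384 of all 12180 genes were called then, against 3923 in the main fit. The 2-group fit used only the spread within Control and hiHepD8, which may be technical.

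TRIB3, a pseudokinase induced by ATF4 and DDIT3 that acts back on ATF4, lies on chromosome 17 at 34808273 to 34819592. It stood at 7.34, 9.51 and 7.55 FPKM in Control, with NoBAL at 4.49 and 6.41, EmptyBAL at 2.25 and 6.56, hiHepD4 at 9.84 and hiHepD8 at 2.24 and 2.67. All NoBAL, EmptyBAL and hiHepD8 libraries were below every Control library. The single call was that of hiHepD8 against Control (-1.40 ± 0.34, adjusted p = 0.016), and it was lost without Control replicate 2 or either hiHepD8 library (adjusted p = 0.0575 to 0.111) and with the same-sum scaling (-0.99). The difference of EmptyBAL from Control was -0.87 ± 0.34 (adjusted p = 0.0586) and became -1.48 (adjusted p = 0.00115) without EmptyBAL replicate 2; without the same library EmptyBAL was also called lower than NoBAL (-0.97, adjusted p = 0.012), and without EmptyBAL replicate 1 hiHepD8 was called lower than EmptyBAL (-1.13, adjusted p = 0.00892).

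ASNS encodes asparagine synthetase, a classic ATF4 target that makes asparagine, and lies on chromosome 9 at 77318341 to 77336290. It was a low transcript throughout, at 0.348, 0.630 and 0.626 FPKM in Control, with NoBAL at 2.73 and 2.43, EmptyBAL at 1.86 and 3.82, hiHepD4 at 3.07 and hiHepD8 at 0.297 and 0.399. Failing liver and the day 4 library were all above every Control and hiHepD8 library. Mean FPKM was 4.83-fold higher in NoBAL and 5.31-fold higher in EmptyBAL than in Control, and 7.42-fold lower in hiHepD8 than in NoBAL. On the log2(FPKM + 1) scale, which understates low genes, these were 1.23 ± 0.22 (adjusted p = 0.00275), 1.28 ± 0.22 (adjusted p = 0.00204) and -1.41 ± 0.24 (adjusted p = 0.00247). hiHepD8 was likewise lower than EmptyBAL (-1.46 ± 0.24, adjusted p = 0.00275), and did not differ from Control beyond the spread (-0.18 ± 0.22, adjusted p = 0.568). NoBAL and EmptyBAL did not differ beyond their spread either (0.05 ± 0.24, adjusted p = 0.882).

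CHAC1 degrades glutathione and is induced through ATF4; it lies on chromosome 1 at 130360510 to 130363332. Its level was 0.457, 0.715 and 0.460 FPKM in Control, with NoBAL at 1.43 and 0.406, EmptyBAL at 0.704 and 1.51, hiHepD4 at 1.72 and hiHepD8 at 3.52 and 3.11. Both hiHepD8 libraries were above every other library, while Control, NoBAL and EmptyBAL overlapped. CHAC1 was higher in hiHepD8 than in Control (1.49 ± 0.26, adjusted p = 0.00393), than in NoBAL (1.22 ± 0.28, adjusted p = 0.00936) and than in EmptyBAL (1.06 ± 0.28, adjusted p = 0.0202). The last call was lost without EmptyBAL replicate 1 (0.78, adjusted p = 0.0838) or either hiHepD8 library (adjusted p = 0.0755 and 0.105) and with a smaller pseudocount (adjusted p = 0.0539 and 0.0672), and that against NoBAL without hiHepD8 replicate 1 (adjusted p = 0.0587). EmptyBAL against Control (0.43 ± 0.26, adjusted p = 0.195) was called with the same-sum scaling alone (0.99, adjusted p = 0.0212, against a median of 0.65 for all genes). ASNS and CHAC1, both ATF4 targets, thus parted on day 8. CHAC1 was above every other library, while ASNS overlapped Control and did not differ from it beyond the spread.

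HERPUD1 encodes an ER membrane protein of ER-associated degradation and lies on chromosome 6 at 18901171 to 18913427. It stood at 84.8, 91.1 and 87.0 FPKM in Control, with NoBAL at 34.3 and 21.8, EmptyBAL at 19.0 and 24.5, hiHepD4 at 67.0 and hiHepD8 at 54.2 and 53.5. The order of levels was Control, hiHepD8, then NoBAL and EmptyBAL, and the libraries overlapped between the last 2 groups alone. HERPUD1 was lower than in Control in NoBAL (-1.64 ± 0.22, adjusted p = 0.000692), EmptyBAL (-1.97 ± 0.22, adjusted p = 0.000265) and hiHepD8 (-0.69 ± 0.22, adjusted p = 0.0461). It was higher in hiHepD8 than in NoBAL (0.95 ± 0.24, adjusted p = 0.0137) and than in EmptyBAL (1.28 ± 0.24, adjusted p = 0.00493), and NoBAL and EmptyBAL did not differ beyond their spread (-0.33 ± 0.24, adjusted p = 0.313). The call of hiHepD8 against Control was lost without any library of either group (adjusted p = 0.11 to 0.208) and under both other scalings (-0.49 and -0.13), and that of hiHepD8 against NoBAL without either hiHepD8 library (adjusted p = 0.0778 and 0.073). HERPUD1 and the row named DDIT3 were low where the summed hepatocyte markers were low. The second DDIT3 row was higher in EmptyBAL, where that sum was lowest, than in NoBAL. Nor did the markers move alike. HNF4A was at 118 and 119 FPKM in hiHepD8, against 105 to 112 in Control, while the other markers were below Control there. In hiHepD4 FGB, APOA1 and HNF4A were above every Control library and the others below. The part of those markers in either result was not tested.

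CRELD2 encodes an ER-resident protein induced in ER stress, known from mouse to be an ATF6 target, and lies on chromosome 5 at 709042 to 716766. Its level was 15.9, 17.9 and 14.1 FPKM in Control, with NoBAL at 199 and 62.6, EmptyBAL at 66.0 and 55.3, hiHepD4 at 88.7 and hiHepD8 at 7.32 and 8.32. Every NoBAL and EmptyBAL library was above every Control library and every hiHepD8 library was below, with the NoBAL libraries 3.18-fold apart. This gene had the widest range of the 8, and its mean was 8.19-fold higher in NoBAL than in Control (2.74 ± 0.42, adjusted p = 0.0013) and 16.7-fold lower in hiHepD8 than in NoBAL (-3.68 ± 0.46, adjusted p = 0.000618). EmptyBAL was also above Control (1.86 ± 0.42, adjusted p = 0.0073), and hiHepD8 was below EmptyBAL (-2.80 ± 0.46, adjusted p = 0.00271). EmptyBAL was not called against NoBAL (-0.88 ± 0.46, adjusted p = 0.171), but was without NoBAL replicate 2 (-1.70, adjusted p = 0.00653). hiHepD8 against Control was not called (-0.94 ± 0.42, adjusted p = 0.126), although those libraries did not overlap. With the 2 groups fitted alone its adjusted p was 0.000392, but 8384 of all 12180 genes were called then, against 3923 in the main fit. The 2-group fit used only the spread within Control and hiHepD8, which may be technical.

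Markers of other cells also differed between the groups. The 3 neutrophil markers found of 6 listed (S100A8, S100A12 and CSF3R) summed to 0.327 to 1.19 FPKM in Control, with NoBAL at 26.2 and 233, EmptyBAL at 100.5 and 626, hiHepD4 at 65.4 and hiHepD8 at 0.694 and 0.970, with S100A8 at 0 in all Control libraries. They were high in the groups in which CRELD2 and ASNS were high, and their part in those results was not tested. Plasma cells are rich in XBP1 and in ER proteins. The 7 plasma cell and B cell markers used summed to 37.6 to 41.5 FPKM in Control, with NoBAL at 59.6 and 32.8, EmptyBAL at 76.5 and 105, hiHepD4 at 36.9 and hiHepD8 at 40.5 and 39.1. Both EmptyBAL libraries and NoBAL replicate 1 were above every Control library. This sum did not follow XBP1, which had its lowest group mean in EmptyBAL (21.96 and 61.0 FPKM) and its highest value in hiHepD4 (183 FPKM). The markers did not move alike: the plasma cell gene JCHAIN was at 10.9 to 13.6 FPKM in Control, with NoBAL at 2.57 and 2.37 and EmptyBAL at 5.39 and 30.8, whereas CD79A, a part of the B cell receptor, was at 19.2 to 21.5 in Control, with NoBAL at 54.2 and 27.4 and EmptyBAL at 53.1 and 31.2. MZB1, an ER protein of plasma cells, was at 2.36 to 3.02 FPKM in Control, with NoBAL at 0.429 and 1.59 and EmptyBAL at 15.4 and 36.7, and MS4A1, a B cell marker, was at 0 in both NoBAL libraries. Their part in the results was not tested.

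**Figure D2:**
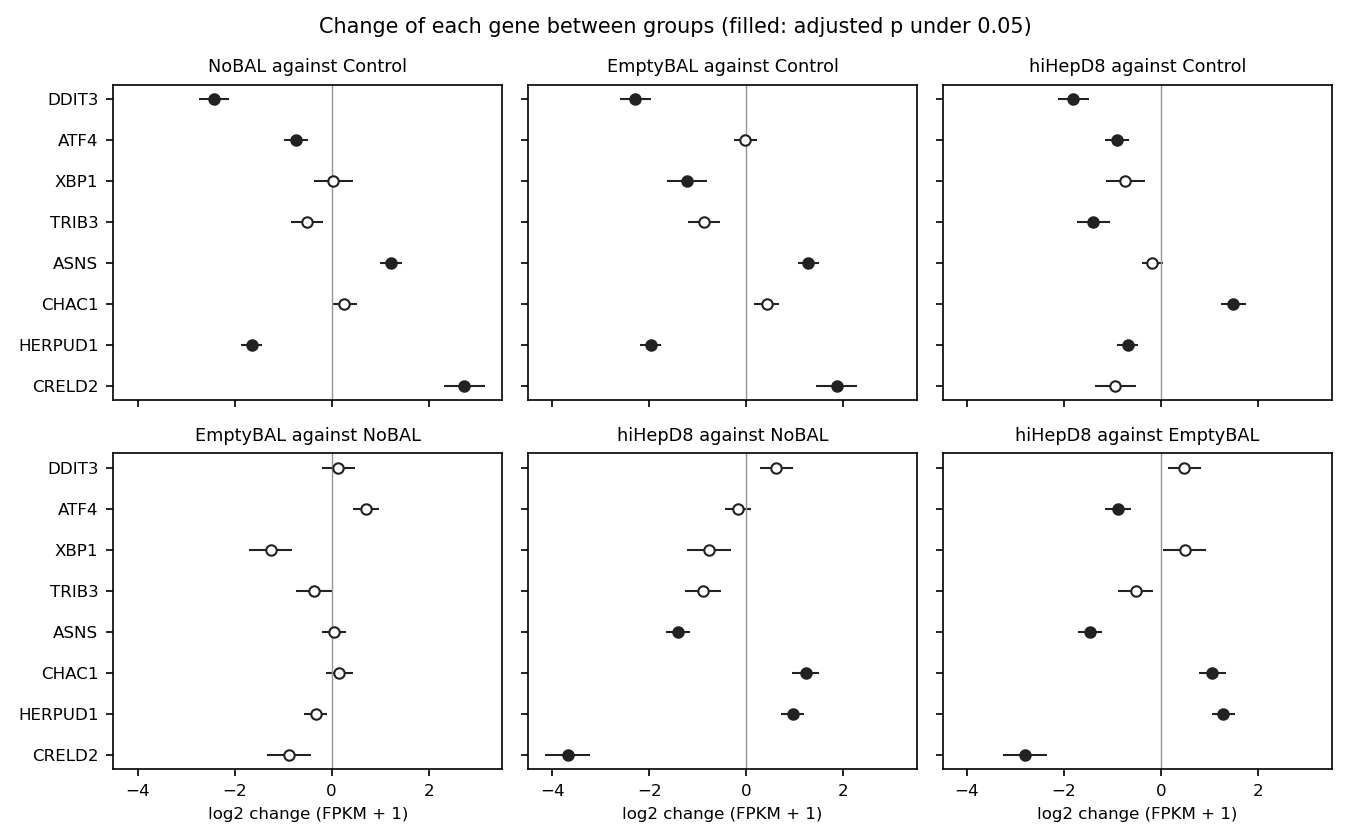
Log2 change (horizontal axes, log2(FPKM + 1) scale) of the 8 genes in the 6 comparisons of replicated groups; points are limma estimates, bars are 1 SE, and filled points had an adjusted p under 0.05. EmptyBAL against NoBAL has no filled point, and the largest distance from 0 is that of CRELD2 in hiHepD8 against NoBAL, at -3.68.

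Each count of called genes is read against the share of all tested genes called in the same comparison. NoBAL against Control, the comparison that describes liver failure, called 2 of the 8 genes higher and 3 lower, where 49.4% of all genes were called (25.2% higher and 24.2% lower). EmptyBAL against Control also called 2 higher and 3 lower, with a background of 53.7% (24.4% higher and 29.3% lower); it shares the Control libraries with the first. hiHepD8 against Control called 1 higher and 4 lower, with a background of 32.2% (15.1% higher and 17.1% lower). It called fewer of the 8 when any single library of either group was left out, and calls over all genes fell as well. The median change of the 8 genes was -0.24, -0.45 and -0.82 in these 3 comparisons, and that of all genes was 0.04, -0.03 and -0.02.

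hiHepD8 against NoBAL, the comparison by which the study sought genes reverted by the device, called 2 genes higher (CHAC1 and HERPUD1) and 2 lower (ASNS and CRELD2), with a background of 47.3% (22.5% higher and 24.8% lower). Without hiHepD8 replicate 1 it called fewer of the 8, and calls over all genes fell as well. hiHepD8 against EmptyBAL called CHAC1 and HERPUD1 higher and ATF4, ASNS and CRELD2 lower, with a background of 40.2% (22.6% higher and 17.6% lower). It called fewer of the 8 without either hiHepD8 library, and calls over all genes fell as well. This comparison shares the hiHepD8 libraries with the comparison before. Side by side, ASNS changed by 1.23 in NoBAL against Control and by -1.41 in hiHepD8 against NoBAL, HERPUD1 by -1.64 and 0.95, and CRELD2 by 2.74 and -3.68; these comparisons share the NoBAL libraries. EmptyBAL against NoBAL called none of the 8 with limma, 2 of them (ATF4 and XBP1) having an unadjusted p under 0.05, with a background of 34% (12.6% higher and 21.4% lower). It did call among the 8 without either NoBAL library or without EmptyBAL replicate 2. Calls over all genes fell in the first case and rose in the second. When the Control libraries were averaged to 1 and the hiHepD8 libraries to 1, limma called none of the 8 in any comparison. Calls over all genes also fell steeply in that fit, which left 1 value in each of those groups. It therefore cannot tell a loss particular to these 8 genes from a general loss of calls.

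The other genes of both responses were described from 6 lists, each count being set beside the share of all tested genes called that way. Among 22 ER chaperones and folding enzymes, 7 were higher and 1 lower in NoBAL than in Control (median change 0.56, against 0.04 for all genes), where 25.2% of all genes were called higher and 24.2% lower, and 15 were lower and none higher in hiHepD8 than in NoBAL (median -1.32, against -0.03), where 24.8% of all genes were called lower. MANF, a secreted ER stress protein, stood at 54.2, 52.1 and 55.5 FPKM in Control, with NoBAL at 479 and 136, EmptyBAL at 111 and 158, hiHepD4 at 233 and hiHepD8 at 26.4 and 24.5. Its change was 2.22 ± 0.46 (adjusted p = 0.00547) in NoBAL against Control and -3.28 ± 0.51 (adjusted p = 0.00157) in hiHepD8 against NoBAL. DNAJB11, a co-chaperone of BiP, followed the same course (1.95 ± 0.36, adjusted p = 0.00314, and -3.09 ± 0.39, adjusted p = 0.000684). The chaperone BiP itself, HSPA5, chosen here after its values were seen, was at 94.7 to 103 FPKM in Control, with NoBAL at 421 and 142, EmptyBAL at 56.9 and 203, hiHepD4 at 225 and hiHepD8 at 35.9 and 34.7. It was called in hiHepD8 against NoBAL (-2.76 ± 0.63, adjusted p = 0.00912) and not in NoBAL against Control (1.30 ± 0.58, adjusted p = 0.096).

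In EmptyBAL, 1 of 22 of the chaperones was higher than in Control (MANF) and 7 were lower, where 24.4% of all genes were called higher and 29.3% lower. The median was -0.44, against -0.03 for all genes, and 0.36, against 0.65, when libraries were scaled to the same sum. P4HB, a protein disulfide isomerase, was at 1414 to 1704 FPKM in Control, 1299 and 969 in NoBAL, and 392 and 331 in EmptyBAL (-2.14 ± 0.24 against Control, adjusted p = 0.000291). Against NoBAL, 7 of 22 were lower in EmptyBAL and none was higher (median -0.92, against -0.14 for all genes), where 21.4% of all genes were called lower. In hiHepD8, 10 of 22 were lower than in Control and none was higher (median -0.98, against -0.02 for all genes), where 17.1% of all genes were called lower. Among these genes were CALR (-1.59 ± 0.35, adjusted p = 0.0113) and PDIA4 (-1.59 ± 0.36, adjusted p = 0.013).

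Genes by which proteins enter and leave the ER, a part of the XBP1 programme, took a similar course. Of 18, 6 were higher and 1 lower in NoBAL than in Control (median 0.40, against 0.04 for all genes, of which 25.2% were called higher and 24.2% lower). In hiHepD8 against NoBAL 15 were lower and 1 higher (median -1.25, against -0.03 for all genes, of which 24.8% were called lower and 22.5% higher). In EmptyBAL 9 were lower than in NoBAL and none higher (median -1.03, against -0.14), where 21.4% of all genes were called lower. Against Control 9 were lower in EmptyBAL and none higher (median -0.68, against -0.03), where 29.3% were called lower. In hiHepD8 against EmptyBAL 3 were lower and 1 higher (median -0.21, against 0.05), where 17.6% and 22.6% of all genes were. SEC61B and SEC61G, subunits of the channel through which new proteins enter the ER, changed in hiHepD8 against NoBAL by -2.21 ± 0.41 (adjusted p = 0.00347) and -2.45 ± 0.44 (adjusted p = 0.00326). SEC62, an accessory factor of that channel, went the other way, at 42.1 to 57.3 FPKM in Control, 11.4 and 12.03 in NoBAL, and 30.5 and 32.2 in hiHepD8 (-1.93 ± 0.19, adjusted p = 0.000171, and 1.35 in hiHepD8 against NoBAL, adjusted p = 0.0016). LMAN1, a cargo receptor for secreted clotting factors, was lower than in Control in EmptyBAL (-1.84 ± 0.38, adjusted p = 0.00495) and hiHepD8 (-2.03 ± 0.38, adjusted p = 0.00571). In NoBAL against Control, 7 chaperones were called higher with both NoBAL libraries, more without NoBAL replicate 2 and fewer without replicate 1. Of the entry genes 6 were called higher with both, and the count moved the same ways. Without replicate 1 the entry genes called lower in hiHepD8 than in NoBAL were fewer than 15. Calls over all genes fell in all of these fits, also where more of these genes were called. The median over the chaperone list, relative to Control, was 0.84 and 0.27 in the NoBAL libraries, and that over the entry genes was 0.66 and 0.03.

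**Figure D3:**
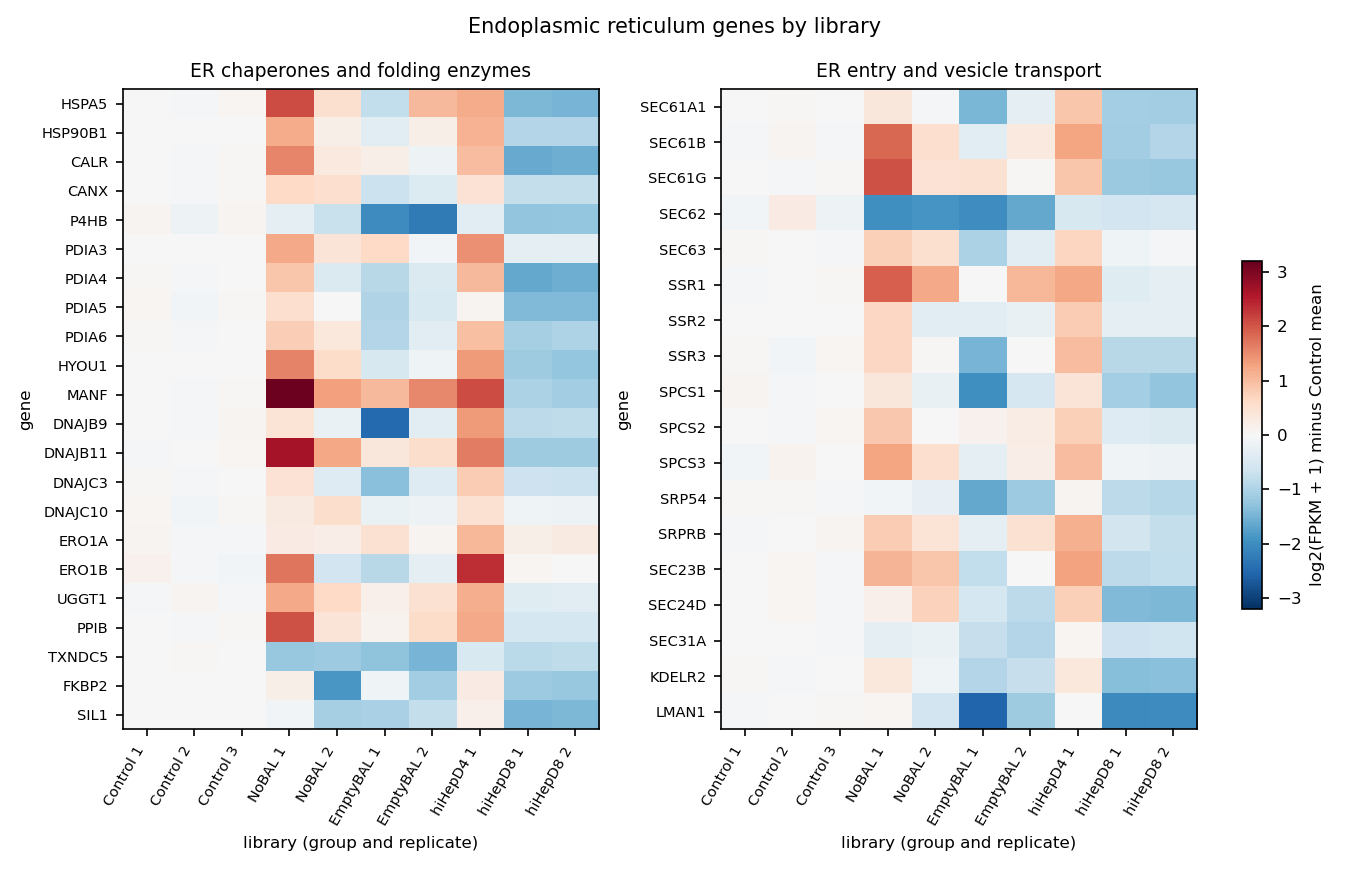
Colour gives log2(FPKM + 1) minus the Control mean for 22 ER chaperones and folding enzymes (left) and 18 ER entry and transport genes (right), with genes in rows and the 10 libraries in columns. NoBAL replicate 1 and hiHepD4 are mostly red, with list medians of 0.84 and 1.05 for the chaperones, and both hiHepD8 libraries are mostly blue, at -0.97.

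Of 17 genes of ER-associated degradation, 5 were higher and 3 lower in NoBAL than in Control (median 0.41, against 0.04 for all genes), where 25.2% and 24.2% of all genes were. In hiHepD8 against NoBAL 1 was higher and 7 lower (median -0.53, against -0.03), where 22.5% and 24.8% of all genes were. OS9, a lectin that hands misfolded glycoproteins to the degradation complex, followed HERPUD1 rather than the chaperones, at 196 to 199.5 FPKM in Control, with NoBAL at 44.4 and 35.4, EmptyBAL at 19.6 and 31.1, hiHepD4 at 75.2 and hiHepD8 at 138 and 135. It was lower in NoBAL (-2.29 ± 0.22, adjusted p = 0.000162) and EmptyBAL (-2.95 ± 0.22, adjusted p = 4.59e-05) than in Control and higher in hiHepD8 than in NoBAL (1.76 ± 0.24, adjusted p = 0.000985). UBE2J2, a ubiquitin-conjugating enzyme of the ER, was higher in NoBAL than in Control (1.43 ± 0.19, adjusted p = 0.000677).

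Genes linked to ATF4 were split. In NoBAL against Control, 2 of 13 transcription and signalling genes were higher and 6 lower (median -0.57, against 0.04 for all genes), where 25.2% and 24.2% of all genes were. ATF3, a stress factor of the same family as ATF4, was at 199 to 202 FPKM in Control, with NoBAL at 14.7 and 10.2, EmptyBAL at 10.3 and 7.09, hiHepD4 at 37.6 and hiHepD8 at 1.07 and 0.875. It was lower than in Control in NoBAL (-3.92 ± 0.21, adjusted p = 1.15e-05) and in hiHepD8 (-6.67 ± 0.21, adjusted p = 2.93e-06). On day 8, 6 genes of the list were higher and 4 lower than in NoBAL (median 0.18, against -0.03 for all genes), where 22.5% and 24.8% of all genes were. SESN2, an inhibitor of mTORC1 that responds to amino acid shortage, was at 5.51 to 5.91 FPKM in Control, with NoBAL at 8.44 and 8.74, EmptyBAL at 2.80 and 10.5, hiHepD4 at 9.99 and hiHepD8 at 58.1 and 55.1 (3.12 ± 0.43 against EmptyBAL, adjusted p = 0.00133). NUPR1, a stress-induced nuclear protein gene, was at 677 to 713 FPKM in Control, with NoBAL at 507 and 132, EmptyBAL at 649 and 565, hiHepD4 at 1941 and both hiHepD8 libraries at 2058 (2.99 ± 0.54 against NoBAL, adjusted p = 0.00322). GDF15, a circulating stress signal, was lower in hiHepD8 than in NoBAL (-2.93 ± 0.43, adjusted p = 0.0012).

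Of 15 tested amino acid supply genes, 6 were higher and 3 lower in NoBAL than in Control (median 0.26, against 0.04 for all genes), where 25.2% and 24.2% of all genes were. In hiHepD8 against NoBAL 2 were higher and 10 lower (median -1.34, against -0.03), where 22.5% and 24.8% of all genes were. PYCR1, an enzyme of proline synthesis, was at 14.0 to 17.9 FPKM in Control, with NoBAL at 125 and 64.0, EmptyBAL at 43.4 and 52.1, hiHepD4 at 73.7 and hiHepD8 at 10.8 and 11.7 (2.47 ± 0.28 in NoBAL against Control, adjusted p = 0.000318). CBS and CTH, the enzymes that make cysteine from homocysteine, were the 2 that were higher in hiHepD8 than in NoBAL, with changes of 4.47 ± 0.25 (adjusted p = 2.97e-05) and 3.68 ± 0.83 (adjusted p = 0.00858). PSAT1 and PHGDH of serine synthesis were lower in hiHepD8 than in Control, with changes of -1.96 ± 0.60 (adjusted p = 0.0401) and -3.03 ± 0.91 (adjusted p = 0.0381).

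Among 13 sensors and genes of eIF2 control, 4 were higher and 2 lower in NoBAL than in Control, where 25.2% and 24.2% of all genes were. The median was 0.07, against 0.04 for all genes, and -0.04, against -0.05, with upper-quartile scaling. PPP1R15A, the stress-induced subunit that directs a phosphatase to eIF2, was at 87.4 to 95.8 FPKM in Control, with NoBAL at 12.5 and 8.63, EmptyBAL at 66.3 and 13.8, hiHepD4 at 32.3 and hiHepD8 at 21.6 and 22.5. It was lower than in Control in NoBAL (-3.03 ± 0.54, adjusted p = 0.00263), EmptyBAL (-1.56 ± 0.54, adjusted p = 0.0405) and hiHepD8 (-2.01 ± 0.54, adjusted p = 0.0247). RTCB, the ligase that joins the spliced XBP1 message, was higher in NoBAL than in Control (1.89 ± 0.25, adjusted p = 0.000698) and lower in hiHepD8 than in NoBAL (-2.07 ± 0.28, adjusted p = 0.000848), with 16.1 to 18.0 FPKM in Control, 60.5 and 72.9 in NoBAL, and 14.7 and 15.5 in hiHepD8. EIF2S1, the subunit of eIF2 that the kinases phosphorylate, was higher in NoBAL than in Control (1.76 ± 0.35, adjusted p = 0.00436). It was lower in EmptyBAL (-1.87 ± 0.38, adjusted p = 0.0111) and in hiHepD8 (-1.98 ± 0.38, adjusted p = 0.00421) than in NoBAL. Neither EmptyBAL nor hiHepD8 differed from Control beyond the spread (adjusted p = 0.795 and 0.661).

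**Figure D4:**
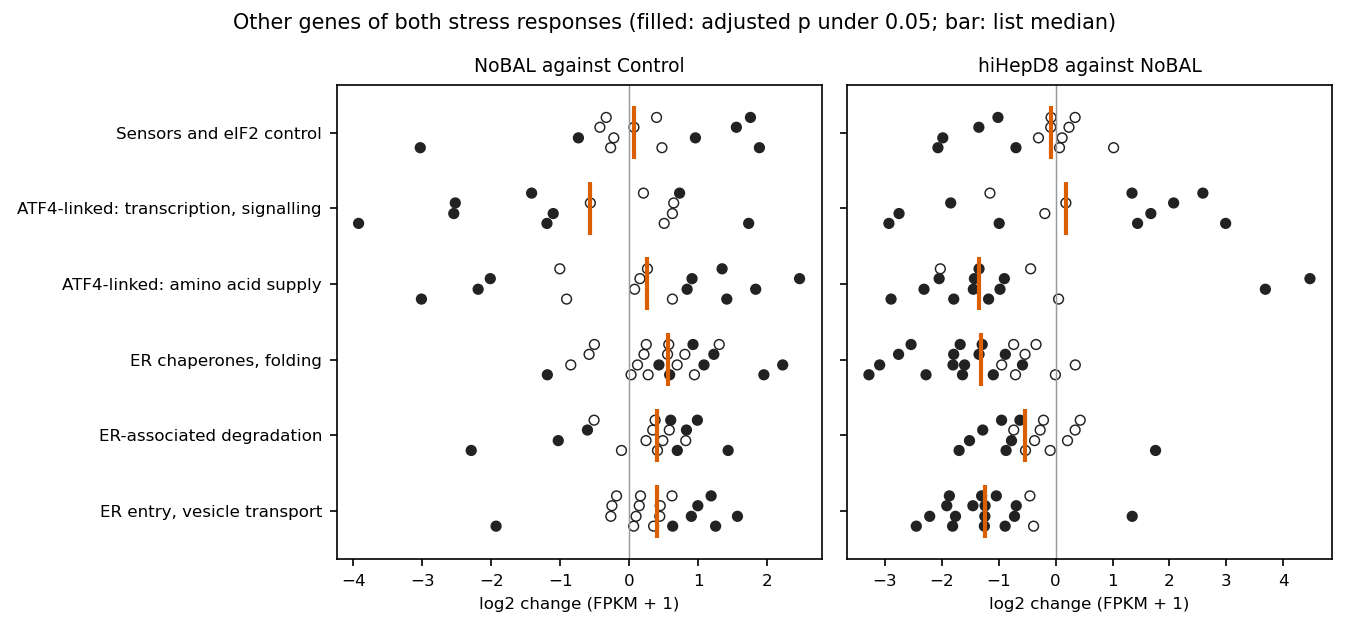
Log2 change (horizontal axes, log2(FPKM + 1) scale) of each tested gene of the 6 lists in NoBAL against Control and in hiHepD8 against NoBAL; each point is a gene, filled points had an adjusted p under 0.05, and orange bars are list medians. The chaperone and entry lists have medians of 0.56 and 0.40 on the left and -1.32 and -1.25 on the right.

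The day 4 library, a single library that was not tested, carried high values for ER genes. On the log2(FPKM + 1) scale it was at least 2-fold above the Control mean for 3 of the 8 genes (XBP1, ASNS and CRELD2), where 8.19% of all genes were, and at least 2-fold below it for 1 (DDIT3), where 11.2% were. The same held for 12 of the 22 chaperones, with none at least 2-fold below, and for 4 of the 18 entry genes. Of all 10 libraries hiHepD4 was the highest for 9 chaperones and 10 entry genes, and NoBAL replicate 1 for 10 and 7. Over all tested genes hiHepD4 was the highest for 9.11% and NoBAL replicate 1 for 13.2%. In hiHepD4, 5 of the 8 genes were above every Control library, where 46% of all genes were. These 2 libraries also had the largest summed FPKM outside Control, 813633 and 791281, against 439925 to 564816 in the others; the part of this in the result was not tested.

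For each of the 8 genes, the genes with the most similar course were sought by the mean absolute difference over the 10 libraries of log2(FPKM + 1), each gene centred on its own Control mean. XBP1 was most like DNAJC3, an ER co-chaperone that inhibits PERK, at a mean difference of 0.135, followed by NECTIN1 at 0.147, while its own values spanned 3. CRELD2 was most like CCDC167 (0.273) and PYCR1 (0.28) over a span of 4.59. DDIT3 was most like KCNJ16 (0.204) and MAN1C1 (0.205), HERPUD1 like ACAD10 (0.106) and ETS2 (0.158), and ATF4 like RASSF1 (0.113) and B2M (0.134). TRIB3 was most like ERG28 (0.206) and HEBP1 (0.224), ASNS like YEATS4 (0.161) and ASPM (0.185), and CHAC1 like ANKZF1 (0.152) and SLC25A38 (0.177). The libraries fall into groups, so these likenesses are a description of the same few group levels.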

How the data were processed

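RNA sequencing of 10 pig liver libraries was analysed from a single table of FPKM that the authors deposited, 1 column per library. Per the submitters' processing notes, the tools were Cufflinks, HTSeq and HISAT2 and the listed builds mm10 and Sscrofa11.1, with no role for each; the table's own unit is not written in it and FPKM was taken from these tools and from the values. Low FPKM did not step in whole fragments (at most 4.84% of genes under 0.1 FPKM shared the commonest ratio between 2 libraries), so depth is unknown. Libraries were grouped by title. Symbols came from the table for 16497 rows and from a reference table of identifiers for 851 more; the highest-mean row stood for a symbol in the lists, and coordinates are RefSeq's for Sscrofa11.1, matched by symbol. The 10 genes and the lists were chosen with earlier results of these data known.

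log2(FPKM + 1) of the 12180 genes that reached 1 FPKM in 2 or more libraries was fitted in limma 3.58.1 (R 4.3.3), 1 mean per group over all 10 libraries, with a mean-variance trend, 5 residual and 2.73 prior degrees of freedom; the script was tested on simulated data. Since the labels name no animals, the p-values reflect variation among libraries alone, and this variation may be technical. From each list and comparison described, up to 2 called genes with the largest change and no overlap between groups were eligible to be named. Strand was not stated, so overlapping and antisense genes are uncertain. Alternatives were other pseudocounts, filters, scalings, variance models, averaging, summed rows of a symbol, a replicate block and leaving out each library. Python 3.11.15, pandas 2.3.3 and matplotlib 3.10.9 made tables and plots. Of the plasma cell and B cell marker list, 1 marker is not reported here and is left out of its sum.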

Additional observations from a re-analysis of the deposited data

Results flagged for a closer look

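The hiHepD4 library entered no test, and 5 of the 8 genes stood above every Control library in it, where 46% of all tested genes did. XBP1 was at 183 FPKM, against at most 90.3 in Control. CRELD2 was at 88.7 FPKM, against at most 17.9. ASNS was at 3.07 FPKM, against at most 0.630. CHAC1 was at 1.72 FPKM, against at most 0.715. TRIB3 was at 9.84 FPKM, against at most 9.51, a difference smaller than the SD of the Control libraries (1.19).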

How the results depend on the processing

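Of 726 recomputed changes of the 8 genes, 601 kept their direction and their side of the threshold, 80 lost the call, 19 gained it and 26 turned direction; no called change turned direction. Averaging Control and hiHepD8 to 1 library each left none of the 8 genes called in any comparison. It also left no chaperone or entry gene called higher in NoBAL than in Control or lower in hiHepD8 than in NoBAL. Calls over all genes fell steeply in that fit too, so it does not single out these genes. Requiring 1 FPKM in all 10 libraries removed DDIT3, ASNS and CHAC1 from the test, each being below 1 FPKM in some library. It left 3 genes called in each comparison with Control, 2 in hiHepD8 against NoBAL and 3 in hiHepD8 against EmptyBAL. The missing calls were those of the removed genes. All 30 changes that were still tested kept their direction and their side of the threshold. Of the 8448 genes then tested, 4344, 4423 and 2414 were called in NoBAL, EmptyBAL and hiHepD8 against Control. In hiHepD8 against NoBAL and against EmptyBAL 4067 and 3317 were called. The same-sum scaling left 2 in hiHepD8 against Control, where 4649 of all 12180 genes were called, against 3923 in the main fit. Fitting only the 2 groups, or 1 variance per group, left 3 in hiHepD8 against EmptyBAL. There 2353 and 2595 of all genes were called, against 4895 in the main fit. EmptyBAL against NoBAL went from 0 to 1 under upper-quartile scaling, under same-sum scaling and with rows of a symbol summed. Over all genes 3786, 2970 and 4147 were called there, against 4146 in the main fit. Leaving out single libraries lowered the count in hiHepD8 against Control and, for some libraries, in hiHepD8 against NoBAL. Calls over all genes fell in every such fit of these 2 comparisons. The count rose for some libraries in EmptyBAL against NoBAL and moved both ways in hiHepD8 against EmptyBAL. Calls over all genes moved both ways in those comparisons. Alternatives for the lists were chosen after seeing the data: chaperones higher in NoBAL than in Control went from 7 to 4 with upper-quartile and 12 with same-sum scaling and were 6 to 13 without single NoBAL libraries; entry genes were 2 to 7. Entry genes lower in hiHepD8 than in NoBAL went from 15 to 8 with upper-quartile scaling and were 8 to 14 without single libraries. Over all genes, upper-quartile and same-sum scaling called 5683 and 5643 in NoBAL against Control, 44% and 66.6% of them higher. The main fit called 6021 there, with 51% higher. In hiHepD8 against NoBAL upper-quartile scaling called 5664, with 64% higher, against 5764 and 47.5% in the main fit. The share of all genes called that way thus moved in the same direction as the list counts under these scalings. The cause of these changes was not tested.

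Changes that turned direction were as follows. With upper-quartile scaling they were -0.088 for XBP1 in NoBAL against Control, 0.39 for ATF4 in EmptyBAL against Control, 0.083 for TRIB3 and 0.20 for HERPUD1 in EmptyBAL against NoBAL, and 0.14 for ATF4 in hiHepD8 against NoBAL. With same-sum scaling ATF4 gave 0.79 and 0.038 in the second and last of these, and TRIB3 and HERPUD1 gave 0.0019 and 0.12 in EmptyBAL against NoBAL. With the DDIT3 rows summed, hiHepD8 against EmptyBAL gave -0.70. Without single libraries, NoBAL against Control ranged from -0.36 to 0.43 for XBP1 and from -0.13 to 0.66 for CHAC1, and EmptyBAL against Control from -0.26 to 0.22 for ATF4. EmptyBAL against NoBAL ranged from -0.36 to 0.64 for DDIT3, -0.97 to 0.25 for TRIB3, -0.32 to 0.43 for ASNS and -0.23 to 0.56 for CHAC1. hiHepD8 against NoBAL ranged from -0.54 to 0.20 for ATF4. hiHepD8 against EmptyBAL ranged from -0.017 to 0.98 for DDIT3, -0.23 to 1.20 for XBP1 and -1.13 to 0.084 for TRIB3.

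Replicate numbers in the labels were not shown to pair libraries. Deviations of same-numbered libraries from their group means correlated at -0.089 to 0.010 between Control and the other groups. They correlated at 0.137 between NoBAL and EmptyBAL, and at 0.009 and 0.033 for hiHepD8 with NoBAL and with EmptyBAL. Between groups of 2 libraries both same-numbered pairs give the same correlation by construction, so each of these is a single value. With the replicate block, 4 genes were called in NoBAL against Control, 4 in EmptyBAL against Control and 0 in EmptyBAL against NoBAL, ATF4 changed by 0.0010 in EmptyBAL against Control, and over all genes 3010, 3737 and 407 were called, against 6021, 6540 and 4146. The hiHepD8 libraries are numbered 1 and 2 in the table's column names, and a replicate block with those numbers, without hiHepD4, was added after seeing the data. It called 3 genes in hiHepD8 against Control (ATF4 and HERPUD1 were lost), 4 against NoBAL and 3 against EmptyBAL (ATF4 and CHAC1 were lost), and over all genes 2344, 4783 and 3793, against 3923, 5764 and 4895.

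Scaling moved the median of all genes by -0.09, 0.32, 0.15, 0.39, 0.24 and -0.17 (upper quartile) and by 0.29, 0.67, 0.48, 0.36, 0.17 and -0.20 (same sum), in the order NoBAL, EmptyBAL and hiHepD8 against Control, EmptyBAL and hiHepD8 against NoBAL, and hiHepD8 against EmptyBAL. The share of called genes that were higher moved in that order from 51%, 45.4%, 46.9%, 37%, 47.5% and 56.2% to 44%, 64.7%, 61.3%, 84%, 64% and 42.5%, and to 66.6%, 77.4%, 78.9%, 84.6%, 58.7% and 38.6%. Depth is unknown and sets no limit here that can be stated.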
